A study of Sus scrofa with 6 samples.

Results

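Genes that carry oxygen or handle iron were read in the longissimus dorsi, a long back muscle, of Tibetan pigs living at 2 altitudes. The set was 10 genes chosen by symbol, and 7 of them had a row in the table of 25322 genes: the globins HBB and HBM, the transferrin receptor TFRC, the ferritin light chain FTL, the iron exporter SLC40A1, and the iron regulatory genes ACO1 and IREB2. The other 3, myoglobin (MB), the ferritin heavy chain (FTH1) and haem oxygenase 1 (HMOX1), were not matched to a row by the table of gene names and are not analysed here. All 6 animals were healthy female Tibetan pigs whose age is not given in the sources used here, and none of the labels names a treatment or an altered gene. The high altitude group was 3 free-ranging pigs of the highland at an average of 4000 m. Their libraries are called H1 to H3. The low altitude group, L1 to L3, was 3 pigs kept on the Chengdu plain at an average of 500 m, under experimental conditions with daily feeding, descended from Tibetan pigs raised in the lowland over several generations. Altitude, feeding, husbandry and line history therefore cannot be told apart.

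Haemoglobin binds oxygen in red blood cells and myoglobin stores it in muscle fibres, and both hold it on an iron atom in haem. Cells take up iron bound to transferrin through the transferrin receptor, store it inside ferritin shells built of heavy and light chains, and export it through ferroportin, the product of SLC40A1. When iron is scarce, the iron regulatory proteins made from ACO1 and IREB2 bind messenger RNAs of this system, which stabilises the message of TFRC and holds back translation of ferritin, so that ferritin protein can change with no change in its RNA.

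Levels are given as FPKM, fragment numbers corrected for the length of the gene and the size of the library, so that genes can be set side by side. The FPKM total was 526368 to 571855 per library at high and 506611 to 566907 at low altitude, and relative depth, read from the spacing of low values, was 0.858 to 1.22. Absolute depth is unknown. The fast muscle fibre markers MYL1, MYL11, TNNC2 and ATP2A1 were abundant in every library. MYL1 lay between 10407.9 and 11850.2 in H1 to H3 and between 10100.3 and 10597.4 in L1 to L3. PVALB, another marker of that list, varied widely, from 1.15 in H1 to 396 in H2 and from 1.84 in L1 to 45.4 in L2. A value of exactly 0 need not mean that a gene is silent, because the skeletal muscle actin gene ACTA1 read 0 in 4 libraries but 34167.5 in H2 and 35617.9 in L3.

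The 7 genes differed widely in level. FTL was the most abundant, ranked 164 by mean level among all 25322 genes, followed by HBB at rank 449, TFRC at 1611, ACO1 at 3225 and HBM at 9552. SLC40A1 and IREB2 were at or near 0 in every library. The comparison of the groups asked whether any of these genes differed between pigs at low and at high altitude. In limma with Benjamini-Hochberg adjustment over 10005 tested genes, 0 of the 5 members that passed the filter on low values changed at an adjusted p under 0.05, where 23 genes, 0.23% of all tested, did. At an unadjusted p under 0.05 the count was also 0 of 5, against 9.42% of all tested genes. In 0 of the 5 did the 2 groups keep apart, against 16.1% of all tested genes. The 95% intervals given below still allow sizeable differences in either direction, and p-values rest on 3 animals per group.

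**Figure D1:**
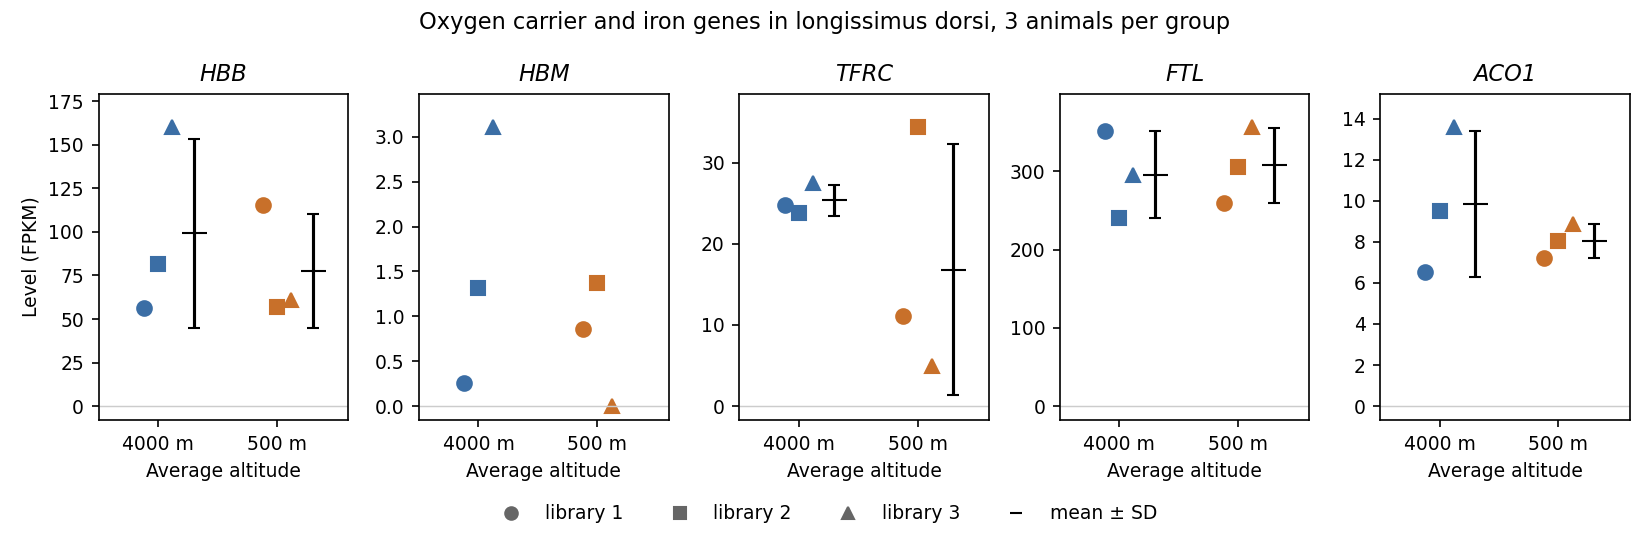
Level (FPKM, linear axes from 0, a separate scale for each gene) of the 5 tested genes by average altitude. Each point is 1 animal, with its library number by shape, and bars are the mean and SD of 3 animals, left out for HBM because a library is listed at 0. TFRC lies between 23.8 and 27.5 in the 3 animals at 4000 m and between 4.99 and 34.4 in those at 500 m.

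TFRC, which brings transferrin-bound iron into the cell, stood apart by its spread at low altitude rather than by its mean. At high altitude it was at 24.8, 23.8 and 27.5 FPKM in H1, H2 and H3, nearly the same level in each animal. At low altitude it was at 11.1, 34.4 and 4.99. L2 was thus above all high altitude libraries and the other two below all of them, and the groups overlapped. The means were 25.4 ± 1.88 (SD, n = 3) at high and 16.8 ± 15.5 at low altitude, a ratio of 1.51. The log2 fold change, here and below the low minus the high altitude mean of log2(FPKM + 1) as fitted, was −0.94 (SE 0.57, 95% interval −2.29 to 0.40, limma with Benjamini-Hochberg adjusted p = 0.659). This size rested on single animals: it was −1.63 without L2 (limma, Benjamini-Hochberg adjusted p = 0.178) and −0.35 without L3 (adjusted p = 0.960).

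The SD of TFRC on the log2(FPKM + 1) scale was 0.10 at high and 1.29 at low altitude. Among all tested genes the median SD was 0.23 at high and 0.16 at low altitude, and 34.7% had the larger SD at low altitude. An SD at low altitude as large as that of TFRC was found in 0.64% of all tested genes, and in 0.769% of the 1950 genes with a mean level within 2-fold of its own. At high altitude 85.0% of tested genes had an SD at least as large as that of TFRC. The ratio of its SDs, 12.7, was reached by 0.41% of tested genes. The highest low altitude animal had 6.90 times the level of the lowest, against 1.15 times at high altitude. The difference in spread was not tested, and an SD over 3 animals is imprecise. The fit took a common spread for both groups, so the SE, interval and p-value of TFRC given above are approximate. With each library rescaled to a common FPKM total the SD of TFRC at high altitude was 0.17, and without H3 it was 0.041.

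**Figure D2:**
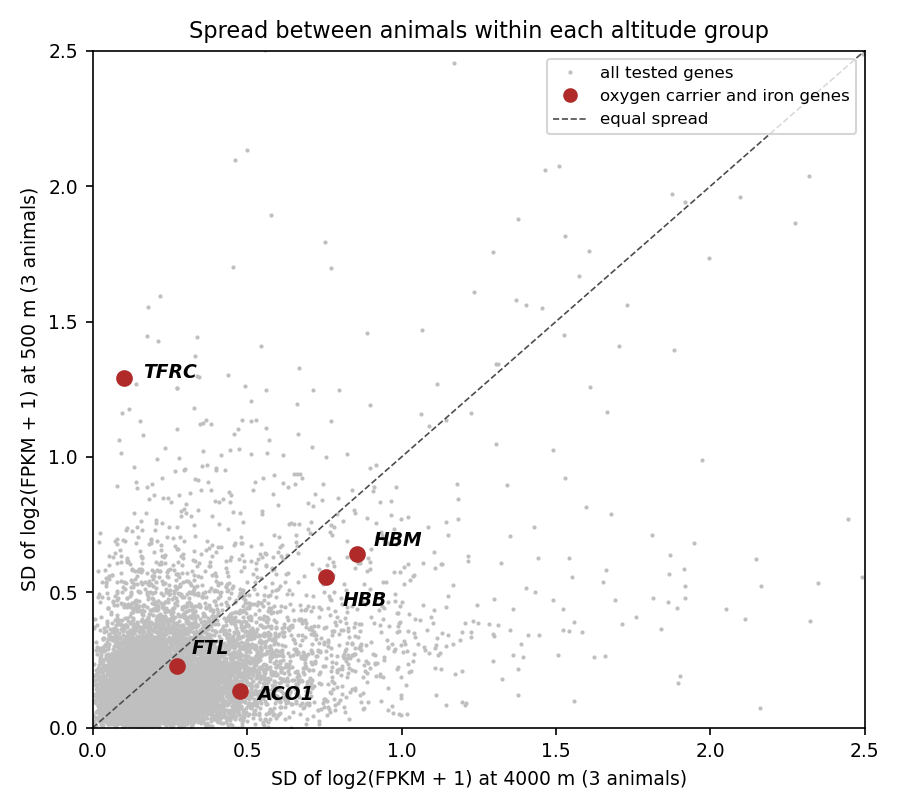
SD of log2(FPKM + 1) over 3 animals at 4000 m (horizontal) against 500 m (vertical). Grey points are all tested genes, of which 24 lie outside the axes, red points are the 5 tested oxygen carrier and iron genes, and the dashed line marks equal spread. TFRC sits far above the line (0.10 and 1.29), whereas HBB, HBM, FTL and ACO1 lie below it.

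Since TFRC is also a gene of immature red cells and of growing cells, other cell types were read beside it. Of 8 erythroid markers other than HBB and HBM with a row, 7 were under 0.1 FPKM in every library, with KLF1 at 0 throughout, and the 8 together reached 0.589 to 2.95 FPKM in H1 to H3 and 0.465 to 1.48 in L1 to L3. The sum of 4 slow fibre markers was 10500, 2750 and 6870 FPKM in H1, H2 and H3 and 3130, 4710 and 3110 in L1, L2 and L3, none of the 4 at 0. L2 was the highest of its group on that sum and on the sum of 5 endothelial markers (42.3, 57.9 and 42.1 at low altitude, 33.1 to 55.6 at high altitude). Most of each endothelial sum was PECAM1. Within the low altitude group PECAM1, KDR, TEK and TIE1 were each highest in L2, but ESAM was lowest there (3.20, 2.98 and 3.37). KDR alone of the 5 did not overlap between groups, as was so for 16.1% of all tested genes. KDR lay at 5.74 to 7.69 FPKM at high and 1.90 to 4.75 at low altitude. Its log2 fold change was −1.09 (limma, Benjamini-Hochberg adjusted p = 0.303). The part of fibre type or vessel content in the spread of TFRC was not tested. In bulk tissue, fewer cells of a type and less RNA per cell cannot be told apart.

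FTL, the light chain of the ferritin shell in which iron is stored, had similar levels in both groups. It was at 351, 241 and 296 FPKM in the high altitude libraries and at 260, 306 and 357 in the low altitude libraries. The groups covered nearly the same range. The means were 295.8 ± 55.2 (SD, n = 3) and 307.4 ± 48.3, and the log2 fold change was 0.060 (SE 0.19, 95% interval −0.40 to 0.52, limma with Benjamini-Hochberg adjusted p = 0.950). Its sign turned with the animals used, to −0.080 without H2 and −0.052 without L3. On the log2 scale its SD was 0.27 at high and 0.23 at low altitude, above the medians over all tested genes.

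Storage and uptake genes can be set against each other within each animal. The ratio of FTL to TFRC, a quantity free of library scaling, was 14.1, 10.1 and 10.8 at high altitude. It was 23.4, 8.89 and 71.5 at low altitude, so that L2 was below and the other two above every high altitude animal. FTL is also abundant in macrophages. The 7 macrophage markers with a row summed to between 40.0 and 55.8 FPKM in H1 to H3 and between 32.6 and 78.3 in L1 to L3, and their order did not follow that of FTL throughout. L3 had both the highest sum and the highest FTL, whereas H2, with the next highest sum, had the lowest FTL. Most of each sum was C1QA, at 29.7, 45.8 and 28.4 FPKM in H1 to H3 and at 23.4, 30.9 and 60.8 in L1 to L3. The order of the sums is therefore mainly that of C1QA. L3 was also the highest of the 6 libraries in CD68 (4.37), CD14 (5.31), MRC1 (5.95) and ITGAM (1.44). CSF1R and MARCO were instead highest in H3. None of the 7 markers was at 0 in all libraries. CSF1R, which defines the lineage, lay between 0 (in H2) and 0.758 at high altitude and between 0.0378 and 0.495 at low altitude. The part of macrophages in the level of FTL was not tested.

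HBB, the beta chain of adult haemoglobin, varied about as much within a group as over the whole series. It was at 56.4, 81.4 and 160 FPKM at high altitude and at 115, 57.0 and 60.6 at low altitude. H3 was the highest and L1 came next, and the remaining 4 lay between 56.4 and 81.4. The means were 99.3 ± 54.2 (SD, n = 3) and 77.6 ± 32.7, with a log2 fold change of −0.29 (SE 0.42, 95% interval −1.29 to 0.70, limma with Benjamini-Hochberg adjusted p = 0.875). Without H3 the estimate was 0.12, on the other side of 0, and without H1 it was −0.63. Its SD on the log2 scale, 0.76 at high and 0.56 at low altitude, was reached by 4.38% and 4.64% of all tested genes. Reads of HBB may be shared with other beta-type globins of the same cluster, since the way they were divided is not stated.

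HBM, a minor globin of the alpha type, was far lower. It was at 0.253, 1.31 and 3.11 FPKM at high altitude and at 0.864, 1.37 and 0 at low altitude. As for HBB, H3 was the highest. The log2 fold change was −0.48 (SE 0.47, 95% interval −1.60 to 0.64, limma with Benjamini-Hochberg adjusted p = 0.794), on a scale that includes the library listed at 0. HBZ, an embryonic alpha-type globin, was at 0.362 FPKM in H1 and listed at 0 in the other 5, and the nerve globin NGB was listed at 0 in all 6.

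ALAS2, the first enzyme of haem synthesis in developing red cells, was low, at 0.567, 0.868 and 2.86 FPKM in H1 to H3 and at 1.35, 0.452 and 0.799 in L1 to L3. It did not pass the filter on low values. Its highest library was the same as for HBB, H3, and its next the same, L1. The ratio of HBB to ALAS2 was 99.4, 93.8 and 56.0 at high and 85.3, 126 and 75.9 at low altitude, a narrower range than that of either gene. All 10 erythroid markers with a row, HBB and HBM included, summed to between 57.2 and 166 FPKM in H1 to H3 and between 58.8 and 118 in L1 to L3, nearly all of it HBB. The amount of blood in each sample was not measured, and its part in the level of HBB was not tested.

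The regulators of the system differed in level. ACO1, which encodes a cytosolic aconitase that becomes iron regulatory protein 1 when it loses its iron-sulfur cluster, was at 6.52, 9.48 and 13.6 FPKM at high altitude and at 7.20, 8.04 and 8.88 at low altitude. The low altitude animals lay inside the range of the high altitude animals. The means were 9.87 ± 3.55 (SD, n = 3) and 8.04 ± 0.844, with a log2 fold change of −0.22 (SE 0.24, 95% interval −0.79 to 0.36, limma with Benjamini-Hochberg adjusted p = 0.826). The estimate was 0.022 without H3 and −0.46 without H1 (limma, Benjamini-Hochberg adjusted p = 0.977 and 0.367). Unlike TFRC, ACO1 had the wider spread at high altitude, an SD of 0.48 against 0.14 on the log2 scale. HBB, HBM and FTL did so too, and only 34.7% of all tested genes had the larger SD at low altitude.

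IREB2, which encodes iron regulatory protein 2, was at 0.0184 FPKM in H2 and 0.0174 in L3 and listed at 0 in the other 4. SLC40A1, the iron exporter ferroportin, was at 0.0208 in H3 and listed at 0 in the other 5. With these values neither gene entered the test, and no fold is given. Whether these values are low expression or failed estimates was not tested.

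Genes that work with these members were read from 6 lists covering iron uptake, ferritin turnover and export, the hepcidin axis, haem synthesis, haem breakdown and mitochondrial iron, and from a list of other globins. Of 81 entries 48 had a row and 32 passed the filter. By limma with Benjamini-Hochberg adjustment 0 of the 32 changed, against 0.23% of all tested genes, and 1 had an unadjusted p under 0.05, against 9.42%. The estimates were below 0 for 18 and above 0 for 14, where 42.3% of all tested genes were below 0. The median log2 fold change was −0.030, against 0.041 over all tested genes. In 1 of the 32 the groups did not overlap, against 16.1% of all tested genes.

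HMOX2, the constitutive haem oxygenase, was the gene with the unadjusted p under 0.05. It was at 16.7, 12.6 and 12.8 FPKM in H1 to H3 and at 15.6, 23.6 and 28.2 in L1 to L3, so that 1 low altitude animal lay within the high altitude range. The log2 fold change was 0.61 (SE 0.23, limma, Benjamini-Hochberg adjusted p = 0.481). BLVRB, a biliverdin reductase, was at 4.76 ± 0.970 (SD, n = 3) at high and 3.56 ± 0.846 at low altitude (a log2 fold change of −0.34, Benjamini-Hochberg adjusted p from limma = 0.630). Neither gene changed by the adjusted test.

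In haem synthesis 0 of 7 tested genes changed, with 4 estimates below 0 and a median of −0.017. ALAS1, the first and rate-limiting enzyme outside red cells, was at 31.9, 22.6 and 20.9 FPKM in H1 to H3 and at 14.8, 23.5 and 12.8 in L1 to L3 (a log2 fold change of −0.56, SE 0.26, Benjamini-Hochberg adjusted p from limma = 0.568). As for TFRC, L2 reached the high altitude levels and the other two lay below them. UROS, which closes the porphyrin ring, was picked for mention from its values. It was at 27.5, 27.5 and 27.4 at low altitude and at 14.7, 27.2 and 32.2 at high altitude.

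Of 12 tested genes of mitochondrial iron and iron-sulfur cluster assembly 0 changed, with 8 estimates below 0 and a median of −0.070. ISCU, the scaffold on which clusters are built, was at 48.6, 43.5 and 41.7 FPKM in H1 to H3 and at 37.5, 38.8 and 37.0 in L1 to L3. It was the pathway gene whose groups did not overlap (a log2 fold change of −0.23, SE 0.13, Benjamini-Hochberg adjusted p from limma = 0.638). NFS1, which supplies the sulfur, was at 13.2 ± 1.43 (SD, n = 3) and 10.98 ± 0.973 (−0.24, limma, Benjamini-Hochberg adjusted p = 0.650).

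In the remaining lists 0 of 4 tested genes of iron uptake and reduction, 0 of 2 of ferritin turnover and export and 0 of 4 of the hepcidin axis changed. Of the metal reductases, STEAP4 was at 1.41 ± 0.134 (SD, n = 3) at high and 0.954 ± 0.401 at low altitude and STEAP3 at 1.87 ± 0.618 and 1.35 ± 0.174. NCOA4, the receptor that sends ferritin to lysosomes, was at 32.5 ± 2.42 and 34.8 ± 5.15, and PCBP2, an iron chaperone, at 105 ± 19.2 and 92.5 ± 5.89. FBXL5, the iron sensor that marks IREB2 protein for breakdown, was at 13.0 ± 2.09 and 14.2 ± 0.518, and the signal protein BMP6 at 1.37 ± 0.329 and 1.27 ± 0.0641. The adjusted p of these 6 genes in limma with Benjamini-Hochberg adjustment was 0.622 or more.

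**Figure D3:**
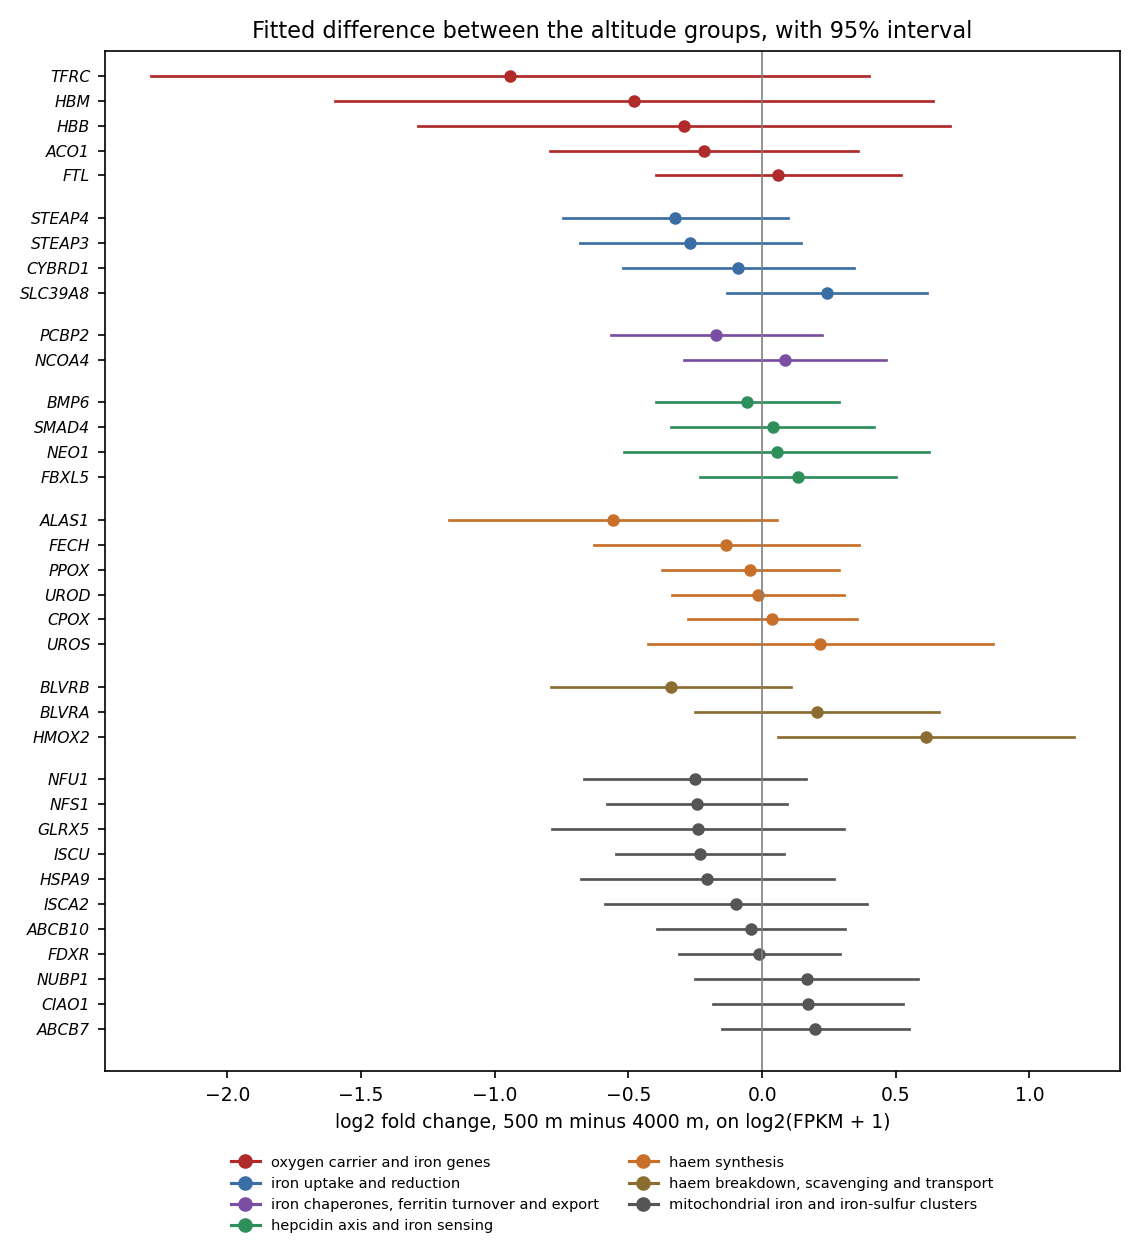
Fitted log2 fold change, 500 m minus 4000 m on the log2(FPKM + 1) scale, of the 5 tested members and 30 of the 32 tested pathway genes, coloured by list. Points are estimates and lines their 95% intervals. TFRC has the widest interval (−2.29 to 0.40), and that of HMOX2 lies above 0 before adjustment.

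The order of the low altitude animals in TFRC, L2 above L1 above L3, was shared by 13 of the 32 tested pathway genes, 40.6%, and by 24.1% of all tested genes. This count was made after the values of TFRC were seen. The 13 included ALAS1, UROS and the cluster genes ISCU, HSPA9 and ISCA2. Order takes no account of size. The highest low altitude animal had 6.90 times the level of the lowest in TFRC. That ratio was 1.84 in ALAS1, 1.57 in HSPA9 and 1.91 in ISCA2, but only 1.05 in ISCU and 1.004 in UROS. The ratio of TFRC to ALAS1 was 0.779, 1.05 and 1.32 at high and 0.753, 1.46 and 0.390 at low altitude, so L3 was lower in TFRC than in ALAS1 relative to the other animals.

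Genes with the profile most like TFRC were sought among 6718 others with a symbol, by the root mean square difference of log2(FPKM + 1) over the 6 libraries after centring each gene on its mean. The nearest were ITGB6, an integrin beta chain (0.43), LSMEM2, a membrane protein (0.44), and PPIF, cyclophilin D of mitochondria (0.47), against a median of 0.90. ITGB6 was at 4.80, 4.08 and 5.98 FPKM in H1 to H3 and at 2.94, 4.79 and 1.42 in L1 to L3. PPIF was at 4.55, 4.12 and 3.999 and at 2.205, 5.70 and 1.79. Each of the 3 had its highest low altitude level in L2 and its lowest in L3, over a narrower range than TFRC. The choice by profile favours this shared order.

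For HBB the nearest were ISLR, a secreted leucine-rich repeat protein (0.13), the cell cycle inhibitor CDKN2C (0.23) and TMEM183A (0.24), against a median of 0.56. ISLR was at 1.56, 2.401 and 6.72 FPKM in H1 to H3 and at 3.498, 1.86 and 2.03 in L1 to L3. CDKN2C was at 5.20, 9.38 and 14.0 and at 10.1, 7.11 and 7.03. All 3 were highest in H3 and next highest in L1 as HBB was, which the choice by profile favours. None of the 3 is an erythroid marker of the list used, but only tested genes were searched. Of the other erythroid markers HBM alone was tested, so the search could not have returned ALAS2.

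**Figure D4:**
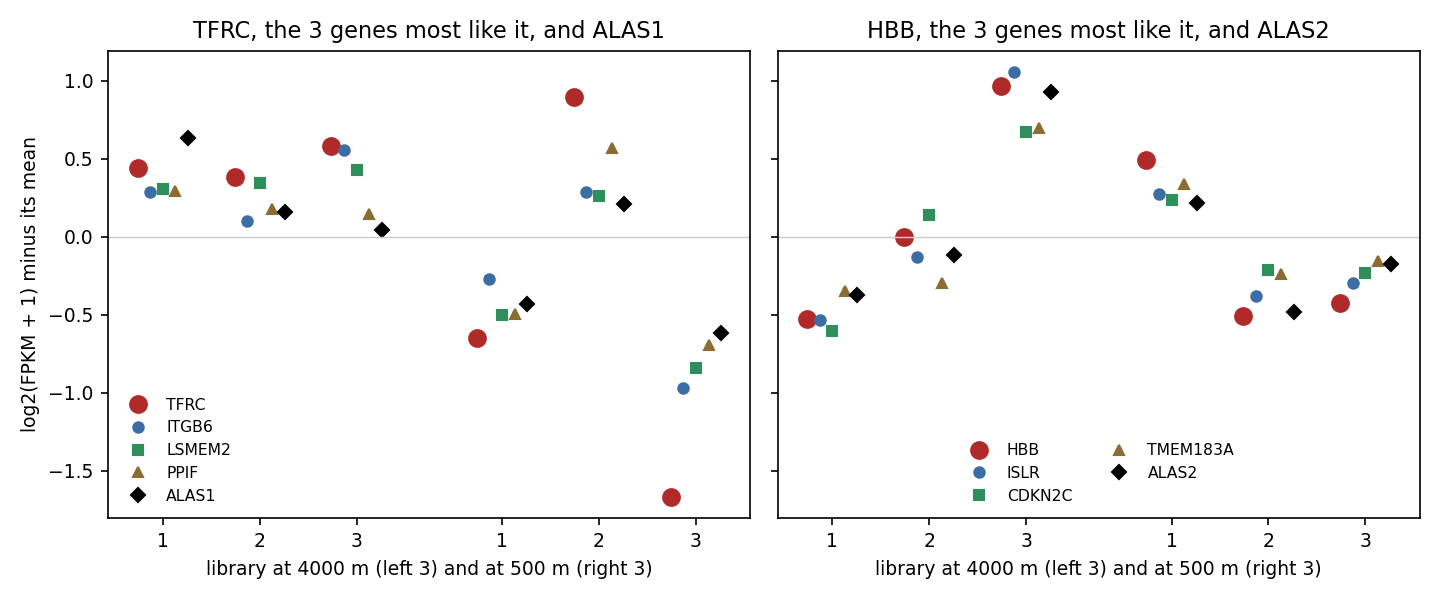
log2(FPKM + 1) minus its mean over the 6 libraries, by library, for TFRC (left) and HBB (right), each with the 3 genes of most similar profile and with ALAS1 or ALAS2. Each point is 1 library. TFRC and its neighbours are lower in L1 and L3 than in L2, and HBB and its neighbours share the peak in H3. The neighbours were chosen for such likeness.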

How the data were processed

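RNA of 6 animals was sequenced, and per the labels' protocols the libraries were strand-specific. The authors deposited FPKM values per Ensembl gene, and the submitters' processing notes name TopHat2 2.0.11 and Cufflinks 2.2.1 with no role. No genome build, annotation or filter is stated in the labels or the file header, so neither coordinates nor sequences are printed. FPKM holds no counts, and no count model was used. In 107 genes a library was at 0 while another reached an FPKM of 5. Symbols were matched for 11804 of 25322 IDs. A gene was tested where 3 or more of the 6 libraries reached an FPKM of 1. Values were fitted as log2(FPKM + 1), low minus high, with limma 3.58.1 (R 4.3.3; trend, two-sided, Benjamini-Hochberg adjustment over all 10005 tested genes, threshold 0.05), and the steps were checked on simulated data. Figures were drawn with matplotlib 3.10.9.

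The members and lists were chosen with earlier results of these data known. Named were all members, up to 2 genes per list by unadjusted p, and the 3 genes most like TFRC and HBB; single results of 3 list genes are not reported here. Alternatives were pseudocounts of 0.1 and 0.5, other filters, scalings and limma settings, a replicate block, and leaving out each library.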

Additional observations from a re-analysis of the deposited data

How the results depend on the processing

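In the 17 alternatives 0 members passed limma's threshold, with Benjamini-Hochberg adjusted p of 0.178 to 0.960 for TFRC. TFRC and HBM kept their direction in each alternative that fitted them, with log2 fold changes of −1.63 to −0.35 and −1.17 to −0.054, and a filter at a mean FPKM of 5 dropped HBM. Without H3, HBB turned to 0.12, ACO1 to 0.022 and BMP6 to 0.015 (single libraries left out gave it −0.18 to 0.015). FTL turned to −0.080 without H2 and −0.052 without L3. Leaving out single libraries gave −0.63 to 0.12 for HBB, −0.46 to 0.022 for ACO1 and −0.080 to 0.19 for FTL. The cause was not tested. Over all genes 23 changed, against 6 with no filter, 9 with median-of-ratios scaling, 10 after quantile normalization, 38 with array weights and 4 to 21 with a library left out (11 without H2, 4 without H3, 6 without L1 and 4 without L3). A common FPKM total gave 26 genes higher and 6 lower, against 16 and 7. The replicate block gave 19 changed genes and 0 members. Deviations of same-numbered libraries correlated weakly (−0.015, 0.095 and −0.14). Of H1 to H3 only H2 correlated best with the library of its own number, and the highest correlation was between H1 and L3 (0.161). Whether the samples were paired cannot be settled from these values.

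The SD of TFRC at high altitude was 0.17 with a common total and 0.041 to 0.14 with a library left out, and at low altitude 0.72 to 1.81. The median SD over the 5 tested members at low altitude was 0.16 without L1, 0.24 without L3 and 0.64 without L2, against 0.56.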
